A study of Danio rerio with 6 samples.

Results

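Genes of the cilium, chosen by their names, were followed in whole brains of adult zebrafish that are homozygous for chrna3 C246X and of wild-type (WT) adults. The members are genes whose zebrafish symbol starts with ift, bbs, dnah, dnai or dnal followed by a digit, or with dnaaf, rsph, cfap, tekt or foxj1, and whose mean value over the 6 libraries is at least 1. There were 106 of them among 23678 genes in the table, 22 transport genes (ift and bbs) and 84 classed as genes of motile cilia. Both classes rest on symbols alone, so a gene classed as motile need not act only in motile cilia. All 106 passed the minimum, the lowest being CFAP68 with a mean of 1.38, so none lay just outside. C246X is a CRISPR/Cas9 allele of chrna3, a gene for a neuronal nicotinic acetylcholine receptor subunit, and each genotype has 3 libraries of polyadenylated RNA. Nothing in the labels says if a library is 1 fish or a pool, so a p-value here covers the spread between libraries, which may be only technical. Sex, hour of sampling and clutch are not stated for either genotype.

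Cilia are hair-like extensions built on a ring of microtubule doublets, the axoneme. Intraflagellar transport (IFT) trains carry building material along the doublets, outward with kinesin-2 motors and back with a dynein-2 motor, and the BBSome (BBS proteins) links membrane cargo to the trains. These transport proteins serve primary cilia, which most neurons and glia carry, and motile cilia alike. Motile cilia also need dynein arms that make the doublets slide, cytoplasmic factors that assemble these arms, radial spokes and a central apparatus that regulate beating, and proteins such as tektins inside the doublets. In the brain, motile cilia stand on ependymal cells that line the ventricles and move cerebrospinal fluid. The transcription factor FOXJ1 switches on the motile program.

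The values are normalised read counts, which are read estimates rescaled by library, with totals of 25655952 to 26794838 per library. They are not divided by gene length, so levels of different genes are not compared. Fold changes are differences of log2(value + 1), C246X minus WT, SE and 95% intervals come from limma, and a gene passed if its p, adjusted after Benjamini and Hochberg over all 23104 genes tested, was under 0.05. The targeted gene had means of 52.7 ± 10.4 in C246X and 61.6 ± 37.1 in WT (SD, n = 3 each), and a premature stop need not change this level. Neuron markers such as ELAVL3, with 19465 to 19586 in C246X and 19942 to 23912 in WT, were present in all libraries, as the labelled tissue requires.

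In both classes most genes did not pass, and more passed as lower than as higher in C246X brains. Of the 84 genes of motile cilia, 17 fell, 4 rose and 63 did not pass. Their median log2 fold change was −0.36. Of the 22 transport genes, 3 fell, 1 rose and 18 did not pass, with a median of −0.05. Over all genes tested, 22.5% passed, 11.4% as lower and 11.1% as higher, and the median was −0.01. Lower calls thus made up 20.2% of motile genes and 13.6% of transport genes. The second share pools 21.4% of the ift genes, near the motile share, with 0% of the bbs genes. Higher calls made up 4.8% of motile and 4.5% of transport genes. Within the motile group the families went different ways. The radial spoke, assembly factor, tektin and cfap families had medians of −0.94, −0.73, −0.79 and −0.45, and the dnai and foxj1 genes −0.50 and −0.48. The dnal genes had a median of 0.14. The dynein heavy chains had a median of 0.22 with positive fold changes in 12 of 12, against 49.0% positive over all genes tested. This rested in part on WT replicate 1, without which the heavy chain median was 0.10 and 8 of 12 were positive. In bulk RNA, fewer ciliated cells and less RNA per ciliated cell cannot be told apart. Libraries of the genotypes did not overlap for 48 members in the counts that follow, 35 with C246X below WT and 13 with C246X above, where 41.4% of all genes tested did not overlap, 20.7% on each side.

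**Figure D1:**
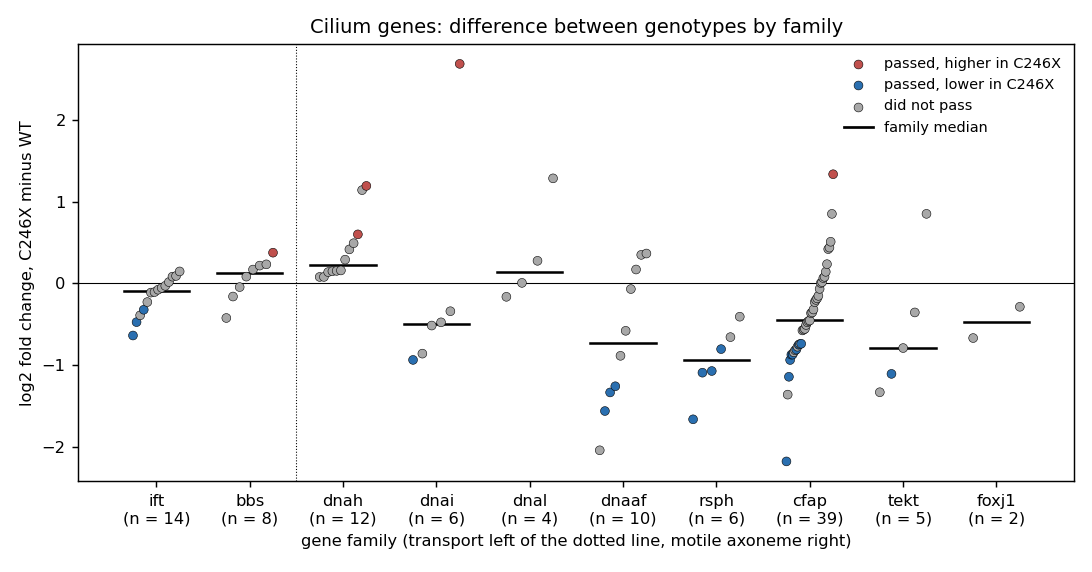
Log2 fold change (C246X minus WT) of each of the 106 genes, grouped by family, with the family median as a black bar and genes that passed in colour. The radial spoke median lies at −0.94 and the dynein heavy chain median at 0.22, while the ift and bbs medians lie at −0.09 and 0.13.

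Radial spokes, the T-shaped arms that pass signals from the central pair to the dyneins, had the lowest family median. All 6 rsph genes had negative fold changes, 4 passed and 0 rose. The lower share was 66.7%, against 11.4% of all genes tested. RSPH4A, a protein of the spoke head, had 92.9, 94.7 and 109.8 in the C246X libraries, against 336, 322 and 290.2 in the WT libraries. Every C246X library lay at about the same low level, far from the lowest WT library, and the fold change was −1.66 (SE 0.13, limma adjusted p = 0.000144). RSPH9, also of the spoke head, had 39.2, 29.5 and 32.2 in C246X and 60.7, 89.4 and 69.9 in WT, without overlap (−1.09, SE 0.24, limma adjusted p = 0.0144). The spoke stalk gene RSPH3 had 53.7, 40.7 and 68.5 in C246X and 114, 136 and 93.2 in WT (−1.07, SE 0.24, limma adjusted p = 0.017). Its C246X libraries were again all below the WT libraries. The spoke gene rsph10b averaged 55.7 ± 11.7 in C246X and 98.1 ± 21.5 in WT (−0.80, limma adjusted p = 0.0439), and its call was lost under 6 of 14 other settings, with adjusted p-values of up to 0.131. These were the replicate block and leaving out any C246X library, WT replicate 2 or WT replicate 3. The RSPH3 call was lost without C246X replicate 1 or 2 or WT replicate 2 (up to 0.0555), and the RSPH9 call without C246X replicate 2 (0.0506). The other 2 spoke genes did not pass. RSPH1 averaged 66.6 ± 5.89 in C246X and 91.0 ± 27.4 in WT, and rsph14 averaged 14.9 ± 2.47 in C246X and 24.6 ± 7.08 in WT.

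Dynein arm assembly factors, which fold and preassemble the arms in the cytoplasm before transport, were split. Of 10 genes 3 fell (30%, against 11.4% of all genes tested), 0 rose and 7 did not pass. For dnaaf9 the values were 2342, 2258 and 2217 in C246X, against 4987, 5198 and 6203 in WT. The C246X libraries sat close together at less than the lowest WT value, and the fold change of −1.26 had the smallest adjusted p of all members (SE 0.08, limma adjusted p = 7.1e-05). The protein it encodes is related to Shulin, which in Tetrahymena packages outer dynein arms for delivery. DNAAF11, known as LRRC6 in patients with immotile cilia, had 45.4, 64.2 and 51.4 in C246X and 116, 154 and 139.8 in WT (−1.33, SE 0.20, limma adjusted p = 0.00305). The co-chaperone gene dnaaf6 had 14.4, 32.6 and 18.1 in C246X and 65.7, 71.3 and 51.9 in WT (−1.56, SE 0.33, limma adjusted p = 0.0133). Neither gene overlapped between the genotypes. Not all assembly factors shared this. The co-chaperone gene dnaaf2 averaged 253 ± 35.7 in C246X and 269 ± 61.6 in WT, a fold change of −0.07 with a 95% interval of −0.48 to 0.34. DNAAF4 averaged 59.2 ± 11.3 in C246X and 52.0 ± 2.86 in WT, and DNAAF10 averaged 342 ± 4.35 in C246X and 271 ± 44.2 in WT (0.35, limma adjusted p = 0.0868). The leucine-rich repeat factor dnaaf1 averaged 30.2 ± 7.16 in C246X and 57.7 ± 20.3 in WT without overlap, but did not pass (limma adjusted p = 0.0835).

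**Figure D2:**
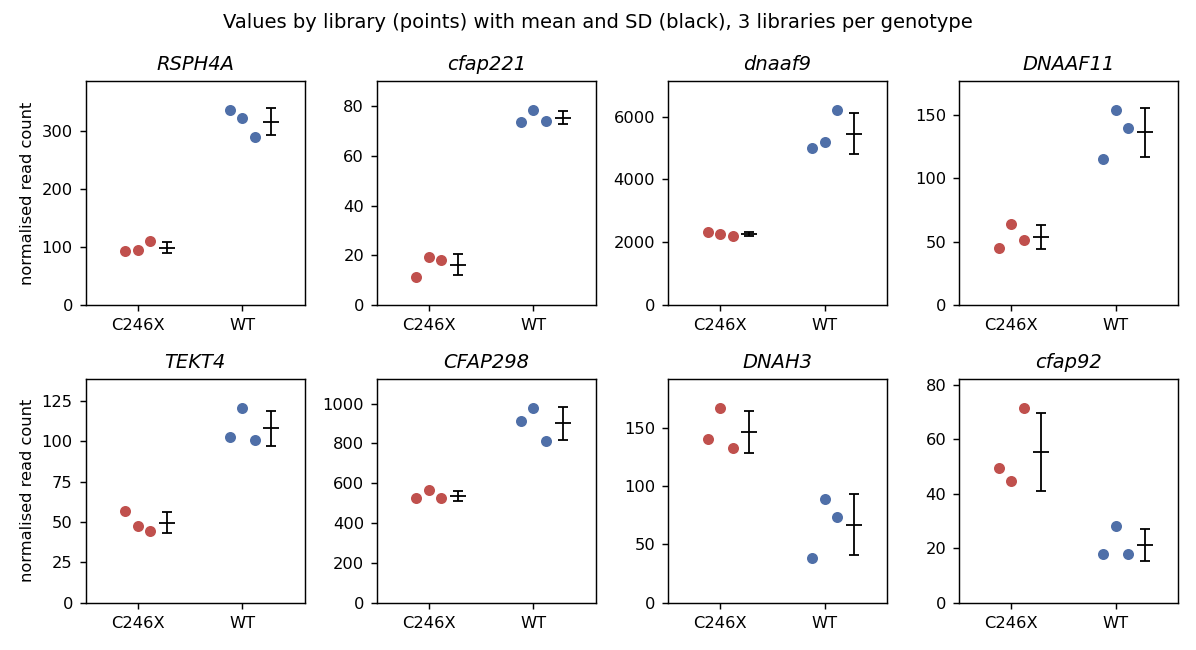
Normalised read counts of 8 members that passed, by library (points), with the mean and SD in black, C246X in red and WT in blue. The libraries of the genotypes do not overlap in any panel. RSPH4A, cfap221, dnaaf9, DNAAF11, TEKT4 and CFAP298 are lower in C246X, and DNAH3 and cfap92 are higher.

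The cfap genes, a name shared by many proteins of cilia and flagella, held 39 members, of which 8 fell, 1 rose and 30 did not pass. That is 20.5% lower and 2.6% higher, against 11.4% and 11.1% of all genes tested. The steepest fall was that of cfap221, a component of the central apparatus. It had 11.3, 19.4 and 18.1 in C246X, against 73.7, 78.4 and 74.1 in WT (−2.18, SE 0.27, limma adjusted p = 0.00125). The WT values were nearly equal, and the highest C246X library lay far below them. CFAP298, whose zebrafish mutant kurly has immotile cilia and a curved body, had 524, 566 and 524 in C246X and 912, 978 and 812 in WT (−0.74, SE 0.09, limma adjusted p = 0.001). The small GTPase partner gene cfap36 averaged 206 ± 13.2 in C246X and 348 ± 27 in WT (−0.75, limma adjusted p = 0.00253). Both genes were below WT in every C246X library.

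Inside the doublet microtubules lie proteins that stiffen the wall. Among them, cfap210 had 116, 117 and 114 in C246X and 189, 247 and 204 in WT (−0.87, SE 0.14, limma adjusted p = 0.00409), and CFAP52 had 79.4, 82.5 and 60.4 in C246X and 123, 139 and 127 in WT (−0.81, SE 0.18, limma adjusted p = 0.0146). Neither overlapped. Other inner-wall genes were less clear. CFAP45 had 182, 183 and 337 in C246X and 464, 305 and 258 in WT, with overlap (limma adjusted p = 0.192), and cfap53 averaged 85.9 ± 24.1 in C246X and 149 ± 51.2 in WT (limma adjusted p = 0.0816). CFAP20 averaged 287 ± 22.7 in C246X and 327 ± 43.1 in WT and did not pass.

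Further cfap genes that fell were CFAP299, cfap70 and CFAP100. CFAP299 averaged 39.7 ± 0.902 in C246X and 77.3 ± 7.41 in WT (−0.94, limma adjusted p = 0.0111). For cfap70 the C246X libraries had 61.9, 79.4 and 54.4 and the WT libraries 125, 229 and 103 (−1.14, limma adjusted p = 0.03). CFAP100, which in Chlamydomonas ties inner dynein arms to the doublet, averaged 86.5 ± 30.7 in C246X and 154 ± 20.7 in WT (−0.87, limma adjusted p = 0.0375), and this call was lost without any 1 library other than C246X replicate 1 (up to 0.117). The cfap70 call was lost without C246X replicate 1 or 3 or WT replicate 2 (up to 0.0973). The gene that rose was cfap92, with 49.5, 44.8 and 71.5 in C246X and 17.9, 28.1 and 18.0 in WT (1.33, SE 0.30, limma adjusted p = 0.0164), and without C246X replicate 3 it did not pass (0.0648). Other cfap genes had intervals that include 0, from −0.33 to 0.19 for CFAP97 and from −0.66 to 0.20 for cfap126, while CFAP410 averaged 62.8 ± 0.67 in C246X and 63.0 ± 7.66 in WT.

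Tektins are filament proteins on the inner face of the doublets. TEKT4 had 56.7, 47.9 and 44.3 in C246X, against 103, 121 and 101 in WT (−1.11, SE 0.19, limma adjusted p = 0.00509), and was the 1 of 5 that passed. The lower share of the family was thus 20%, against 11.4% of all genes tested. TEKT1 had 42.3, 34.6 and 41.3 in C246X and 48.8, 93.5 and 71.0 in WT, and tektl1 had 12.4, 14.3 and 7.05 in C246X and 17.9, 44.2 and 29.7 in WT. Both were without overlap, with adjusted p-values of 0.0722 and 0.056 in limma. WT replicate 1 was the lowest WT library in each and WT replicate 2 the highest, a spread that recurred in other motile genes. TEKT2 had 37.1, 36.7 and 26.2 in C246X and 19.9, 66.3 and 57.2 in WT, so WT replicate 1 lay below every C246X library. TEKT3 was at or under 6.19 in every library.

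Dynein heavy chains, the motor subunits of the arms, did not share the lower levels of the radial spoke genes. Of the 12 genes 0 fell and 2 rose, so 16.7% were higher, against 11.1% of all genes tested. DNAH3, an inner-arm motor, had 140.4, 167 and 132 in C246X, against 38.5, 88.9 and 73.9 in WT (1.19, SE 0.30, limma adjusted p = 0.0244). Another inner-arm motor, DNAH6, had 289.9, 316 and 273 in C246X and 150.3, 213 and 223 in WT (0.60, SE 0.16, limma adjusted p = 0.0334). All C246X libraries exceeded all WT libraries in both. These calls were lost when any C246X library was left out, with adjusted p-values of 0.0606 to 0.0865 for DNAH3 and 0.0704 to 0.112 for DNAH6 in limma.

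The outer-arm motors did not pass. DNAH5 averaged 151 ± 11.8 in C246X and 139 ± 35.9 in WT (95% interval −0.29 to 0.59), DNAH11 averaged 100.3 ± 5.53 in C246X and 77.8 ± 24.6 in WT, and dnah9 averaged 23.1 ± 6.60 in C246X and 16.4 ± 6.17 in WT. A relative of the last, dnah9l, had 38.2, 20.4 and 35.3 in C246X and 19.9, 7.03 and 15.9 in WT. Its libraries did not overlap, and its fold change of 1.14 was the second highest of the family (95% interval 0.13 to 2.15, limma adjusted p = 0.1). The remaining inner-arm genes DNAH1, DNAH2, DNAH7, DNAH10 and DNAH12 had fold changes of 0.14, 0.08, 0.16, 0.29 and 0.08. WT replicate 1 was the lowest of all 6 libraries in 10 of the 12 heavy chain genes. For dnah5l, for example, it had 425, against 894 and 687 in the other WT libraries and 721, 686 and 725 in C246X. Without WT replicate 1 the family median was 0.10 and 8 of 12 fold changes were positive, and the fold change of dnah5l turned to −0.14.

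**Figure D3:**
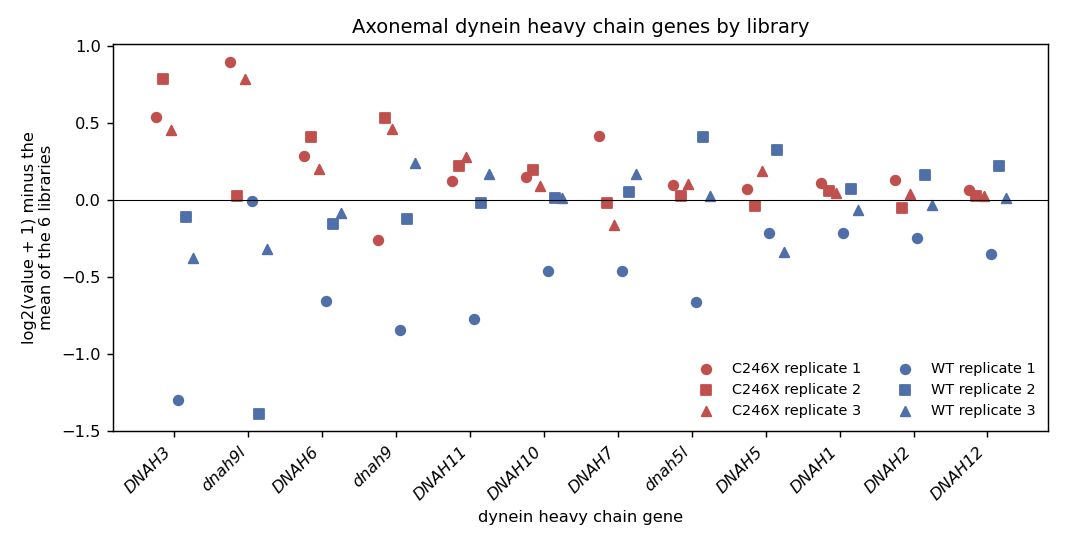
Axonemal dynein heavy chain genes, ordered by fold change, as log2(value + 1) in each library minus the mean of the 6 libraries. C246X libraries are red and WT libraries blue, with 1 symbol per replicate number. WT replicate 1 is the lowest point in 10 of the 12 genes, and DNAH3 and DNAH6 are higher in every C246X library than in any WT library.

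Genes named as intermediate and light chains of the arms gave mixed values. DNAI7 had 37.1, 48.9 and 43.3 in C246X and 73.7, 101 and 76.3 in WT (−0.94, SE 0.22, limma adjusted p = 0.0189), a call lost without C246X replicate 1 or 3 or WT replicate 2 (up to 0.0655). The outer-arm chain gene DNAI1 averaged 106 ± 8.4 in C246X and 138 ± 41.9 in WT, with 185 in WT replicate 2. The other outer-arm chain has 2 copies. DNAI2 had 14.4, 7.13 and 12.1 in C246X and 0, 2.01 and 1.06 in WT, which is 33 estimated reads against 3 and a ratio of 10.8 (exact 95% interval 3.4 to 55.2, counting error only; limma adjusted p = 0.0128, and 0.0586 without C246X replicate 1). Its relative dnai2b had 37.1, 47.9 and 42.3 in C246X and 43.8, 135 and 78.4 in WT and did not pass (−0.86, limma adjusted p = 0.14). Light chain genes did not pass. One DNAL1 gene (ENSDARG00000034042) averaged 403 ± 14.6 in C246X and 453 ± 28.3 in WT, and a second (ENSDARG00000097505) was under 8 in every library. The DNAL4 genes averaged 279 ± 42.8 in C246X and 228 ± 9.19 in WT (ENSDARG00000031116) and 187 ± 10.5 in C246X and 186 ± 6.09 in WT (ENSDARG00000088841). How the authors counted reads shared by close copies is not stated, so values within such pairs are uncertain. That holds also for dnaaf3, listed at 0 in all C246X libraries and at 0, 5.02 and 10.6 in WT, and dnaaf3l, with 83.0 ± 16.5 in C246X and 67.7 ± 29.2 in WT.

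Transport genes were measured more tightly than motile genes. The median coefficient of variation was 5.98% in C246X and 7.85% in WT for transport genes, against 16.1% in C246X and 20.7% in WT for motile genes. Transport genes had means of at least 128 (BBS9), while motile means went down to 1.38 (CFAP68). Counting error weighs more at low values, and its part in this contrast was not tested. Of the 22 transport genes 18 did not pass. Among train components of IFT-B, the complex for outward movement, 3 fell. They make up 21.4% of the 14 ift genes, against 11.4% lower over all genes tested. IFT57 had 212, 214 and 232 in C246X and 371, 369.8 and 289 in WT (−0.64, SE 0.13, limma adjusted p = 0.00969). IFT70A had 693, 665 and 632 in C246X and 1030, 832 and 912 in WT (−0.47, SE 0.09, limma adjusted p = 0.00873). IFT56, which in Chlamydomonas carries motility proteins into the flagellum, had 507, 498 and 539 in C246X and 616, 679 and 639 in WT (−0.32, SE 0.08, limma adjusted p = 0.0205). None of the 3 overlapped between genotypes. The IFT56 call was lost without C246X replicate 1 or 2 or WT replicate 2 or 3 (limma adjusted p = 0.051 to 0.0777).

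Of the other IFT-B genes, IFT81 had 352, 369.7 and 349.5 in C246X and 411, 422 and 423 in WT. Its libraries did not overlap and its 95% interval of −0.41 to −0.04 lay below 0, but it did not pass (−0.23, limma adjusted p = 0.0763). Intervals of IFT52, IFT172 and IFT88 included 0. IFT52 had 534, 535 and 539.9 in C246X and 549, 509 and 535 in WT (95% interval −0.15 to 0.18). IFT172 averaged 1095 ± 49.8 in C246X and 1156 ± 30.0 in WT (−0.22 to 0.07), and IFT88 averaged 945 ± 31.1 in C246X and 854 ± 30.5 in WT (−0.01 to 0.30). IFT140, of the IFT-A complex for the return path, averaged 649 ± 42.2 in C246X and 662 ± 24 in WT (−0.21 to 0.15). In ift74 the WT libraries themselves spread from 774 to 1583, and it did not pass, with a wide interval of −0.90 to 0.12. Differences of 2-fold in either direction lie outside the 95% intervals of all 14 ift genes.

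BBSome genes had a median of 0.13. BBS7 had 611, 674 and 644 in C246X and 519, 492 and 476 in WT and was the 1 transport gene that rose (0.37, SE 0.08, limma adjusted p = 0.0121, and 0.0548 without C246X replicate 2). BBS4 had 593, 560.2 and 515 in C246X and 463, 481 and 473 in WT, also without overlap, but did not pass (0.23, limma adjusted p = 0.0788). BBS2, BBS5 and BBS9 had fold changes of 0.08, −0.05 and 0.22, and BBS1 one of −0.16. Of the chaperonin-like genes that help build the complex, bbs10 had 142, 133 and 161 in C246X and 116, 152 and 122 in WT, and bbs12 averaged 124 ± 19.8 in C246X and 165 ± 11.2 in WT (−0.42, limma adjusted p = 0.0942).

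**Figure D4:**
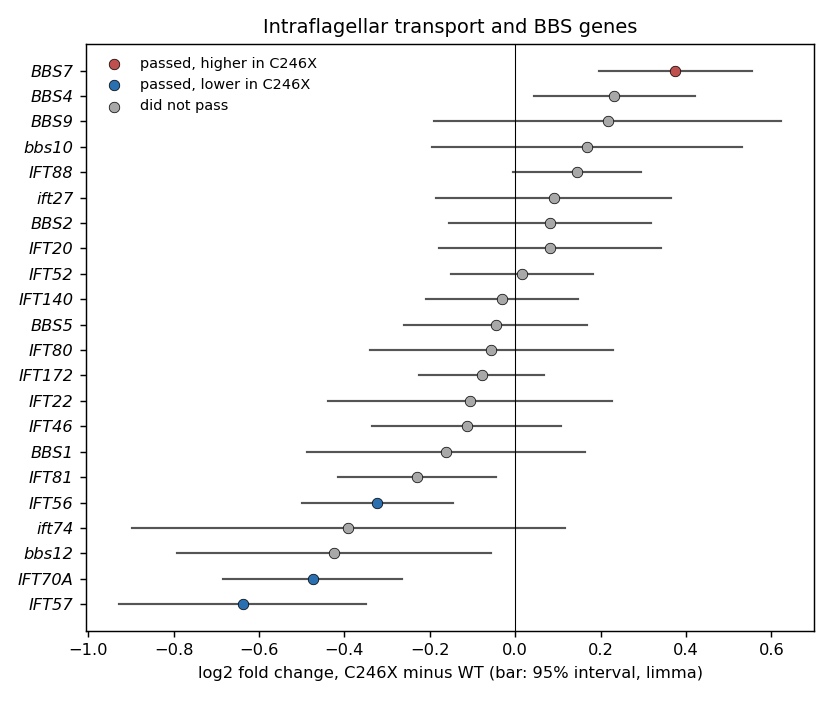
Log2 fold change (C246X minus WT) of the 22 ift and bbs genes with the 95% interval from limma, ordered by size. IFT57, IFT70A and IFT56 (blue) passed as lower and BBS7 (red) as higher, and every ift interval lies between −1 and 1.

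The FOXJ1 gene itself was lower in each C246X library, with 325, 421 and 409, than in any WT library, with 444, 944 and 538. It did not pass (−0.67, SE 0.25, limma adjusted p = 0.0943). WT replicate 2 stood far above the other WT libraries, and FOXJ1 passed without WT replicate 1 (−0.90, limma adjusted p = 0.0366). Its copy foxj1b had 148, 114 and 117 in C246X and 182, 159.8 and 124 in WT, with overlap (−0.29, limma adjusted p = 0.308). Among 16 other regulators of motile and multiciliated cells, 1 fell and 1 rose, with a median of −0.07. Each is 6.25%, below the 11.4% lower and 11.1% higher over all genes tested. RFX2, a factor that works with FOXJ1, averaged 836 ± 38.3 in C246X and 1087 ± 129 in WT (−0.37, limma adjusted p = 0.0247). A copy of RFX7 (ENSDARG00000077237) averaged 1538 ± 74.6 in C246X and 1291 ± 72.3 in WT (0.25, limma adjusted p = 0.0326). The geminin-family genes that start the multiciliated program were low, gmnc with 21.1 ± 6.02 in C246X and 21.8 ± 2.63 in WT and mcidas with 7.81 ± 6.47 in C246X and 9.85 ± 6.49 in WT, and neither passed. The RFX2 call was lost without any 1 C246X library, and the RFX7 call also without WT replicate 1.

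Cilium genes with names outside the rule were set beside the members. Among 55 motile axoneme genes under other names, 18 fell and 0 rose, with a median of −0.38, against 11.4% and 11.1% of all genes tested. The microtubule inner protein gene pierce1 averaged 136 ± 11.5 in C246X and 262 ± 20.8 in WT (−0.94, limma adjusted p = 0.00172). SPATA18, better known for a protein of mitochondrial quality control, had 50.6 ± 6.34 in C246X and 109.7 ± 3.40 in WT (−1.11, limma adjusted p = 0.00405). Outer-arm docking genes odad1 and odad3 and the nexin link gene DRC1, named after their values were seen, fell by 0.62, 1.38 and 0.74 on the log2 scale. The 18 became 10 without C246X replicate 1 and 12 without C246X replicate 2, C246X replicate 3 or WT replicate 3.

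Transport genes under other names had 3 higher and 3 lower of 30, with a median of −0.02. That is 10% in each direction, no more than the 11.1% higher and 11.4% lower over all genes tested. DYNC2H1, the motor of the return path, averaged 1193 ± 88.0 in C246X and 906 ± 108 in WT (0.40, limma adjusted p = 0.0237), while the dynein-2 light chain gene DYNLT2B averaged 91.6 ± 33.0 in C246X and 182 ± 19.1 in WT (−1.04, limma adjusted p = 0.0189). Kinesin-2 genes split as well, with a KIF3C copy (ENSDARG00000017162) at 1465 ± 58.0 in C246X and 1121 ± 115 in WT and a KIFAP3 copy (ENSDARG00000006862) at 1687 ± 59.8 in C246X and 2195 ± 69.6 in WT. TRAF3IP1, an IFT-B subunit, rose by 0.33 (limma adjusted p = 0.0427), and lztfl1, which restrains the BBSome, had a fold change of −0.25 (limma adjusted p = 0.0451). Without C246X replicate 1 the counts were 0 higher and 2 lower, without C246X replicate 2 or 3 they were 1 higher and 1 lower, and without WT replicate 2 or 3 they were 2 and 2. Without WT replicate 1 they were 3 and 2.

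In the transition zone, the gate at the base of the cilium, and among ciliary membrane genes 3 of 43 fell and 1 rose, with a median of −0.03. These are 7.0% and 2.3%, below the 11.4% lower and 11.1% higher over all genes tested. The count of 1 higher gene held without any 1 library, while the count of lower genes was 2 or 3. A TMEM237 copy (ENSDARG00000074248) averaged 94.7 ± 19.4 in C246X and 216 ± 49.9 in WT (−1.18, limma adjusted p = 0.00675). Also lower were rpgrb, with 688 ± 60.4 in C246X and 972 ± 74.0 in WT, and NEK8, with 79.7 ± 10.3 in C246X and 126 ± 14.8 in WT. Among 31 centriole and basal body genes 4 fell and 1 rose, with a median of −0.13. The lower share of 12.9% was close to that over all genes, and the higher share was 3.2%. The centriole gene cpap was nearly absent in C246X, with 41.7 ± 11.1, against 8767 ± 523 in WT. Its fold change of −7.71 was the lowest of the list and far from the list median. Whether a sequence or mapping difference at this gene plays a part was not tested. CEP152 and cep192, which recruit the kinase for centriole duplication, had fold changes of −1.39 and −0.75 (limma adjusted p = 0.0056 and 0.00513), and cep63 one of −0.79. The kinase gene ttbk2a, needed to start a cilium, averaged 1029 ± 131 in C246X and 637 ± 40.2 in WT (0.69, limma adjusted p = 0.00274).

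Within the WT group the libraries differed along the same genes. WT replicate 2 was the highest WT library for 51 of 84 motile genes, against 7855 of 23104 genes tested. WT replicate 1 was the lowest for 52 of 84, against 8972 of 23104. The median deviation of the 84 motile genes from their 6-library mean was −0.25, −0.15 and −0.13 in C246X and −0.02, 0.36 and 0.13 in WT. All C246X libraries lay below the WT libraries, but WT replicate 1 was nearer to C246X replicates 2 and 3 than to the other WT libraries. The heavy chains, set apart after their values were seen, had 0.13, 0.04 and 0.15 in C246X and −0.46, 0.03 and −0.01 in WT. Without them, the other 72 motile genes had −0.29, −0.24 and −0.17 in C246X and 0.07, 0.43 and 0.18 in WT. For ift genes the same deviations were −0.07, −0.05 and −0.07 in C246X and 0.07, 0.09 and −0.01 in WT.

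Marker lists of ciliated and ventricular cells went in different directions. None of 6 floor plate and Reissner fibre markers passed, where 22.5% of all genes tested passed. All 6 fold changes were positive, with a median of 0.29, where 49% of all genes tested were positive. No list was made for the ependymal cells that carry motile cilia, so these values do not measure them. The secreted glycoprotein gene sspo had 170.2, 170.1 and 196 in C246X and 95.6, 252 and 72 in WT, and the summed level of the list was 4951 to 5438 in C246X and 4552 to 4939 in WT. Among markers of neurons that contact the cerebrospinal fluid, 3 of 8 rose, 0 fell and 5 did not pass. The higher share was 37.5%, against 11.1% of all genes tested. Their median fold change was 0.14, with 2 of 8 negative and a range of −0.72 to 1.53. The sums were 4864 to 5155 in C246X and 4460 to 4687 in WT. The channel genes PKD2L1, with 166, 145 and 176 in C246X and 36.8, 76.4 and 60.4 in WT, and pkd1l2a, with 422, 476 and 592 in C246X and 184, 187 and 165 in WT, were higher without overlap. Choroid plexus markers had 2 higher and 1 lower of 14. These are 14.3% and 7.1%, against 11.1% and 11.4% of all genes tested. Their sums were 40038 to 43740 in C246X and 40195 to 49211 in WT. Radial glia markers had 1 higher and 5 lower of 16, so 31% were lower, against 11.4% of all genes tested. Their median was −0.31, beside −0.36 for the motile genes. The lowest fold change of the radial glia list was −7.98, far from this median. Whether a sequence or mapping difference plays a part there was not tested. Sums, in which high genes weigh most, were 174790 to 189371 in C246X and 182529 to 201276 in WT. In olfactory sensory neuron markers 1 of 14 rose (7.1%) and 0 fell, with sums of 7802 to 8441 in C246X and 7026 to 7962 in WT. Of 15 neuron markers 1 rose (6.7%) and 0 fell. Both higher shares lie below the 11.1% of all genes tested. Of 5 erythrocyte markers 0 passed, against 22.5% of all genes tested, with sums of 3190 to 7577 in C246X and 3143 to 6821 in WT. No marker in these lists was at 0 in every library. The part of these cell types in the motile values was not tested.

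Photoreceptors and pineal cells carry modified cilia, and their markers did move with genotype. Of 47 markers 26 fell (55.3%, against 11.4% of all genes tested) and 0 rose, with a median of −2.82. Their summed values were 1128, 9964 and 936 in C246X, against 12693, 39455 and 20317 in WT, so C246X replicate 2 came near WT replicate 1. Among the C246X libraries the 72 motile genes without heavy chains stood at −0.24 in replicate 2 and at −0.29 and −0.17 in replicates 1 and 3. Between C246X replicate 2 and WT replicate 1, the pair closest in these sums and chosen after seeing them, 50 of the 84 motile genes were lower in C246X and 33 higher, with a median difference of −0.16. The 12 heavy chains were all higher there (median 0.55), and of the other 72 genes 50 were lower and 21 higher (median −0.30). WT replicate 1 was the lowest of all 6 libraries in 10 of the 12 heavy chains. The choice of this library thus fixed their direction in advance. The pair also holds only 1 library per genotype. RSPH4A had 94.7 in C246X replicate 2 and 336 in WT replicate 1. Its libraries did not overlap, so any pair gives this direction. The same holds for all motile genes without overlap. Outside the heavy chains these were 30 with C246X below WT and 6 with C246X above, of 72. The counts for the pair thus do not measure what photoreceptor level contributes. Among the WT libraries these 72 genes stood at 0.07, 0.43 and 0.18 in replicates 1, 2 and 3. That is the same order as the WT photoreceptor sums, with replicate 2 highest and replicate 1 lowest in both. Whether photoreceptor or pineal tissue takes part in the difference between genotypes was not tested beyond these values.

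**Figure D5:**
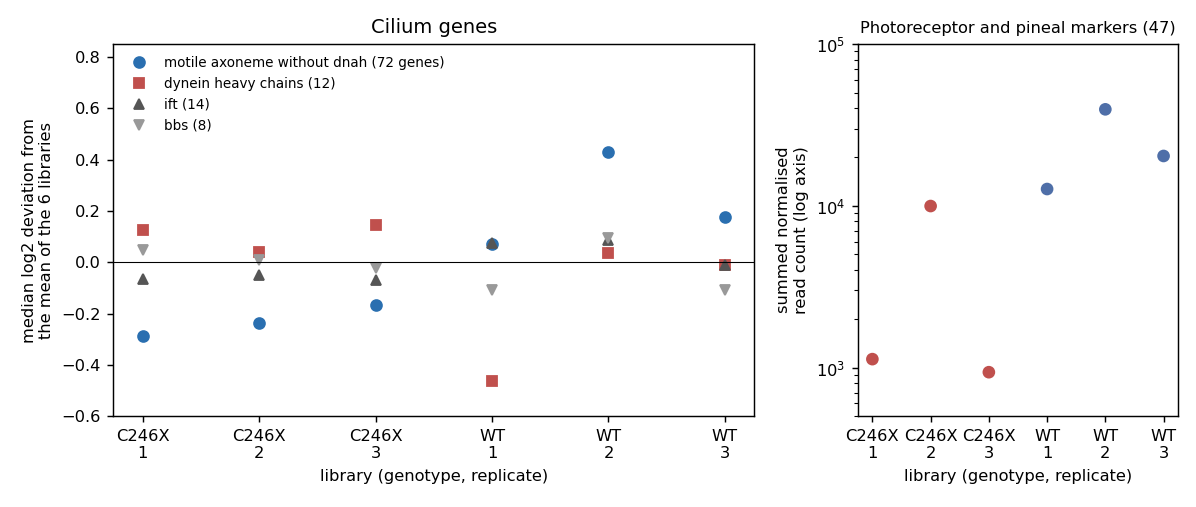
Left, the median over genes of log2(value + 1) minus its 6-library mean, by library, for 4 groups of cilium genes. Right, summed normalised read counts of 47 photoreceptor and pineal markers on a log axis. The 72 motile genes without heavy chains lie between −0.29 and −0.17 in C246X and between 0.07 and 0.43 in WT, and C246X replicate 2 has a photoreceptor sum of 9964 beside 12693 in WT replicate 1.

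Some members lie on the chromosome of the mutated gene. In the gene order of assembly GRCz12tu, to which 102 of the 106 members could be joined by symbol, 5 members share the chromosome of chrna3. These were CFAP45, cfap161, DNAAF4, BBS2 and bbs10, the nearest at 218 protein-coding genes from chrna3. Of the 5, 0 passed, where 22.5% of all genes tested passed. A count over 5 genes is too small to measure an effect of linkage to chrna3, which was not tested.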

How the data were processed

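The deposited matrix holds 1 normalised signal value per gene and library. Per the submitters' processing notes, STAR and GRCz11 were used on the pairs of 150 bp reads. Which counter, annotation and scaling were used is not stated there. Signal values that the authors deposited behave as read estimates that were each divided by a library factor (0.944 to 1.00). Below 1000 reads, whole multiples of a library's step (tolerance 0.03) made up 95.0% to 95.2% of values. Multiplying back gives 24222238 to 26659958 reads per library.

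Each row was assigned to genotype and replicate by its name and genotype cell. Genes with a mean of at least 1 (23104 of 23678, with 574 below) were fitted by genotype on log2(value + 1) with limma 3.58.1 in R 4.3.3, with a mean-variance trend, and p-values were adjusted over all of them. The fit was tested on simulated counts with a common dispersion and no library effects. That test does not cover shifts between libraries such as those within the WT group. The members and lists were chosen with earlier results of these data known. Symbols came from a gene-name table, which names 22274 of the genes. Upper-case symbols are as that table gives them, so copies share a symbol. List symbols were matched by current symbol, synonym or base symbol, and members were removed from the pathway lists.

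Named were all members that passed, FOXJ1 copies, the member of each family with the highest mean and the smallest p, the member closest to the minimum, and up to 3 genes of each pathway list per direction. Others were added for their role, with values seen. Some genes of the lists are not reported here. Alternatives were 3 scalings, 2 filters, a pseudocount of 0.1, limma-voom on recovered reads, a replicate block and each library left out. Counting error only is covered by the interval of the read ratio. Figures used matplotlib 3.10.9 in Python 3.11.15.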

Additional observations from a re-analysis of the deposited data

How the results depend on the processing

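Of the 25 members that passed, 13 passed under all alternatives that gave a value and 0 turned sign. Of 461 values of 33 named members under the alternatives, 423 kept direction and side of the threshold, 34 lost and 2 gained a call, and 2 reversed without having passed. Leaving out 1 library, BBS2 lay between −0.000187 (without C246X replicate 3) and 0.15, and dnah5l between −0.14 (without WT replicate 1) and 0.39. The 3 scalings, no filter, the pseudocount of 0.1 and limma-voom called the same 20 members lower and the same 5 higher, and the 1 CPM filter called 21 and 4. Leaving out 1 library in turn gave 14 (without WT replicate 2) to 27 (without WT replicate 1) lower members, and 2 (without any 1 C246X library) to 6 (without WT replicate 1) higher. Motile genes then had 12 to 24 lower and 1 to 5 higher, with medians of −0.42 to −0.24, and transport genes 2 to 3 lower and 0 to 1 higher, with medians of −0.074 to −0.0094. Among the pathway lists, whose alternatives were chosen after seeing the data, the same omissions gave 0 to 3 higher and 1 to 2 lower for transport genes under other names, 0 to 1 higher and 10 to 18 lower for motile genes under other names, 0 to 1 higher and 0 to 1 lower for regulators, and 1 to 2 higher for centriole genes. Regulators had 0 higher under total-count scaling and limma-voom, and centriole genes 2 higher at 1 CPM. The cause of these shifts was not tested.

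Same-numbered libraries did not deviate together (Pearson r of 0.0734, 0.0475 and 0.0554 across genes, which are not independent replicates), so the numbers were not taken as pairs. With the replicate block, 20 members were lower, 19 of them shared, and 6 higher, 5 of them shared. The block lost rsph10b (limma adjusted p = 0.0791) and called FOXJ1 (0.0318), and 1 motile gene under another name was higher. At this depth the lowest members rest on few reads, as DNAI2 does with 3 reads over the WT libraries.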
